A study of Mus musculus with 4 samples.

Results

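The voltage-gated sodium and calcium channel genes of the mouse were followed through single-nucleus RNA libraries of the hippocampus. The set holds 30 genes of the 32285 features in the libraries, found by gene symbol. It holds 9 sodium channel α subunits (Scn1a to Scn4a and Scn7a to Scn11a), 3 sodium channel β subunits (Scn2b, Scn3b, Scn4b), 9 calcium channel α1 subunits (Cacna1a to Cacna1e, Cacna1g, Cacna1h, Cacna1i, Cacna1s), 4 α2δ subunits (Cacna2d1 to Cacna2d4), 4 calcium channel β subunits (Cacnb1 to Cacnb4) and the sodium leak channel Nalcn.

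Nuclei came from 2 trained and 2 untrained mice that all carried the Arc-driven, inducible Cre (ArcCreERT2) and the floxed eYFP reporter (eYFPflx). Each group has 2 libraries, and the labels do not state that each library is 1 mouse. Trained mice had learned active place avoidance, in which a mouse on a rotating arena keeps away from a sector paired with a mild shock. Tissue was taken 3 days after a retention test, and no recall was triggered before it. The comparison asks how transcript levels differ while the memory is kept; mouse ages are not given in the sources used here, and the eYFP tag was not analysed here. With n = 2 libraries per group, the p-values of training measure the spread between these 4 libraries alone.

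A sodium channel is one large pore-forming α subunit with smaller β subunits, and it opens with depolarization to start and carry the action potential. Calcium channels pair a pore-forming α1 subunit with an α2δ subunit, which helps bring the channel to the membrane and to release sites, and with a cytoplasmic β subunit that shapes its gating. L-type channels (Cacna1c, Cacna1d) couple activity to transcription, P/Q-, N- and R-type channels (Cacna1a, Cacna1b, Cacna1e) serve transmitter release and dendritic calcium entry, and T-type channels (Cacna1g, Cacna1h, Cacna1i) open at negative potentials and support burst firing.

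Barcodes with at least 600 unique molecular identifiers (UMIs, each 1 captured RNA molecule) numbered 6019 and 12206 in Trained 1 and 2, against 16916 and 11969 in Untrained 1 and 2. Their median depth was 736 and 887 UMIs in trained libraries, and 957.5 and 1079 UMIs in untrained libraries. Trained 1 stood apart: the barcodes kept held 20.7% of its UMIs, against 46.4% to 59.9% in the other libraries. A barcode joined a class when its UMIs of that class's marker genes were too many to be a chance draw from its library; 12104 of 47110 barcodes entered 1 class, and 10520 of these lay in the 8 classes with at least 30 nuclei in every library. The classes were rebuilt from markers and are dentate granule-like, CA1 pyramidal-like, CA3 pyramidal-like, inhibitory neuron-like, thalamic excitatory-like, oligodendrocyte-like, astrocyte-like and choroid plexus-like; the suffix is left out below. All listed markers of the dentate granule, CA1 and CA3 classes had UMIs, and none of the 30 genes of the set was used as a marker. The tissue label is hippocampus, yet 1826 nuclei passed the thalamic gate. Pairs of libraries shared 17 to 65 barcode sequences.

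Levels are given as CPM, the UMIs of a gene scaled to the same total of 1000000 UMIs in every library or class. Of the 30 genes, 26 had at least 100 UMIs over the 4 libraries. Scn4a, the channel of skeletal muscle, and Scn11a, a channel of peripheral pain-sensing neurons, had 0 UMIs, which allows up to 0.163 to 0.625 CPM per library, depending on its depth. Scn10a, another channel of peripheral sensory neurons, had 14 UMIs in all, and Cacna1s, the L-type channel of skeletal muscle, had 7. Another 3 genes stayed too low for the fit across classes. Scn7a, which encodes a sodium-sensing channel, lay at 3.33 and 2.52 CPM in trained libraries and at 3.26 and 2.71 CPM in untrained libraries. Scn4b lay at 6.88 and 5.601 CPM in trained libraries and at 8.30 and 7.38 CPM in untrained libraries. Cacna2d4, known from the retina, lay at 4.38 and 4.22 CPM in trained libraries and at 3.69 and 4.94 CPM in untrained libraries. The other 23 genes passed the count filter and were tested; a gene high in a single class can pass the filter through that class, so the counts below describe these 23 genes and not the whole set.

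Each neuronal class had its own channel profile. The libraries' summed counts were compared between each of the 5 neuronal classes and the mean of the other 4, with the library as a block (edgeR's quasi-likelihood test, Benjamini-Hochberg adjustment over 7764 genes). In dentate granule nuclei 6 channel genes were higher and 8 lower, where 13.8% of all genes tested were higher and 14.2% lower. In CA1 nuclei 6 were higher and 7 lower (12.5% and 11.3% of all genes), and in CA3 nuclei 5 higher and 4 lower (9.23% and 5.98% of all genes). Inhibitory nuclei had 4 higher and 9 lower (14% and 12.6% of all genes), and thalamic nuclei 8 higher and 8 lower (20.6% and 17.4% of all genes). The lower genes were 4 rather than 7 in CA1 nuclei without Untrained 2, and in CA3 nuclei 1 without Trained 2 and 2 without Untrained 2. Scn2b was the single gene of the 23 that passed in none of these 5 comparisons. Of the 81 called differences of channel genes, those against non-neuronal classes and within them included, 60 were kept under every alternative that gave a value and 21 were lost under at least 1; the losses are given beside the genes.

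**Figure D1:**
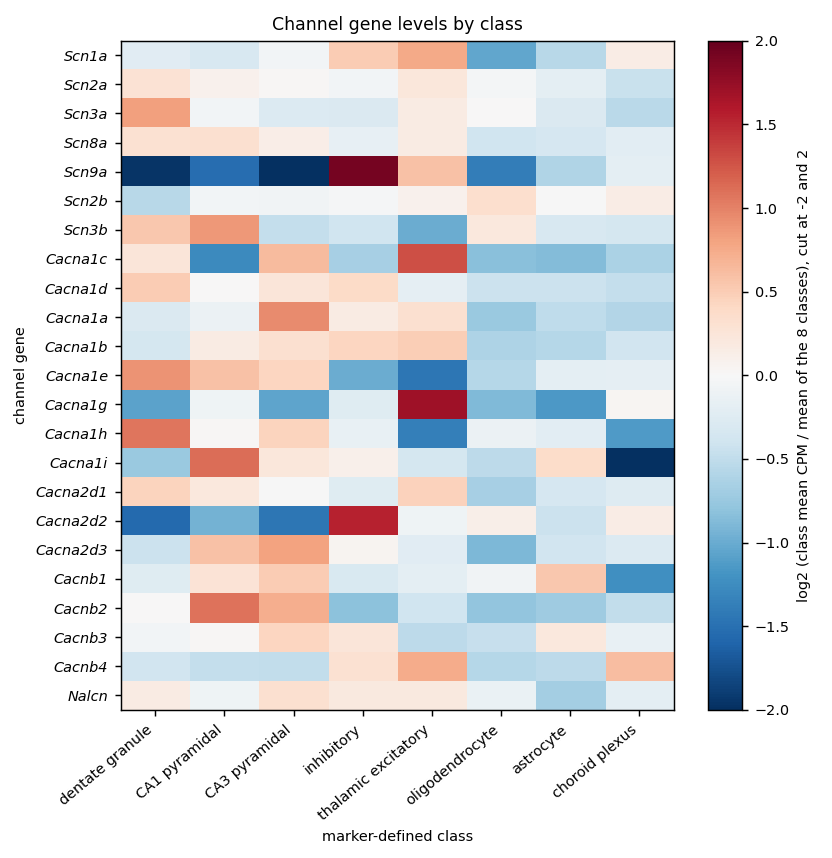
Heat map of the 23 tested channel genes (rows, ordered by role) in the 8 classes (columns). Colour gives log2 of the class mean CPM over the mean of the 8 classes, cut at -2 and 2; red marks Scn9a and Cacna2d2 in inhibitory nuclei and Cacna1g and Cacna1c in thalamic nuclei.

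Against non-neuronal classes (oligodendrocytes, astrocytes and choroid plexus cells), neuronal classes had 14 of the 23 genes higher and 0 lower, where 14.8% of all genes were higher and 12.7% lower. Cacna1c (log2 difference 1.14, SE 0.09, adjusted p = 2.8e-24), Cacna1b (1.07, SE 0.12, adjusted p = 1.47e-13) and Cacnb2 (1.06, SE 0.09, adjusted p = 1.23e-22) had the largest differences. Of the 14, Cacnb4 was lost under 4 alternatives (adjusted p between 0.0874 and 0.195), without Untrained 1 or Untrained 2 among them, and Scn3a with thinned nuclei (0.222). Non-neuronal classes were not free of these transcripts. Cacna1c averaged 1060.2 CPM ± 55.0 in neuronal classes and 496.9 CPM ± 148.5 in non-neuronal classes (SD, n = 4 libraries each), and every library had the neuronal mean higher. This held for the mean of the classes and not for each class. CA1 nuclei averaged 352.4 CPM of Cacna1c, below oligodendrocytes (477.6 CPM) and choroid plexus cells (549.9 CPM). Inhibitory nuclei averaged 514.3 CPM of Cacnb2, below oligodendrocytes (524.7 CPM) and choroid plexus cells (640.6 CPM). Within the non-neuronal classes Cacnb4 alone passed: it was higher in choroid plexus cells (1.01, SE 0.19, adjusted p = 1.54e-05), where 2.89% of all genes were higher and 2.76% lower, and lower in astrocytes (-0.61, SE 0.15, adjusted p = 0.00179), where 5.02% of all genes were higher and 2.85% lower. Without Untrained 2 the astrocyte call of Cacnb4 was lost (adjusted p = 0.176), as it was with no count filter (0.0532), and without Trained 1 the count in choroid plexus cells was 2. In oligodendrocytes 0 of 23 passed by edgeR, where 5.5% of all genes were higher and 2.95% lower after adjustment. Before adjustment 4 of 23 had a p under 0.05, and the share of all genes at that limit is not given here.

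Scn9a, a sodium channel α subunit best known from sensory and sympathetic neurons, had the largest class difference of the 23 genes, in the inhibitory class. In inhibitory nuclei it lay at 131 and 246 CPM in Trained 1 and 2, and at 322.6 and 334.9 CPM in Untrained 1 and 2. Thalamic nuclei came next with 74.3 and 149.5 CPM in trained libraries and 82.3 and 107.6 CPM in untrained libraries, while its mean in dentate granule, CA1 and CA3 nuclei was 17.6, 24.0 and 14.3 CPM. In each of the 4 libraries the inhibitory level exceeded that of every other neuronal class. The log2 difference from the other neuronal classes was 3.17 in inhibitory nuclei (SE 0.13, adjusted p = 2.73e-54) and 1.52 in thalamic nuclei (SE 0.17, adjusted p = 5.48e-15). It was -1.78 in dentate granule nuclei (SE 0.28), -1.28 in CA1 nuclei (SE 0.24) and -1.63 in CA3 nuclei (SE 0.38), all past the threshold. The CA3 difference missed the threshold when every nucleus was thinned to 600 UMIs (adjusted p = 0.294).

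The other sodium channel α subunits of brain differed less between classes. Scn1a, the main α subunit of fast-spiking inhibitory neurons, lay at 362.1 and 402.1 CPM in trained and at 367.1 and 459.9 CPM in untrained libraries in thalamic nuclei. In inhibitory nuclei it lay at 309.7 and 333.7 CPM in trained and at 360.1 and 331.2 CPM in untrained libraries. It was higher in both classes (0.83, SE 0.09 in thalamic and 0.40, SE 0.09 in inhibitory nuclei) and lower in CA1 (-0.59, SE 0.10) and dentate granule nuclei (-0.64, SE 0.11). Scn3a, an α subunit of the developing brain, was highest in dentate granule nuclei, at 177.3 and 204.3 CPM in trained and 202.1 and 169.9 CPM in untrained libraries. Its log2 difference there was 1.05 (SE 0.12, adjusted p = 1.36e-14), and it was lower in CA3 (-0.65, SE 0.21) and inhibitory nuclei (-0.44, SE 0.13). The CA3 call for Scn3a was lost with nuclei thinned to 600 UMIs, without Trained 2 and without Untrained 2 (adjusted p = 0.140, 0.116 and 0.229), and the inhibitory call with thinned nuclei (0.102) and without Untrained 1 (0.0686). Scn2a and Scn8a, the α subunits of the axon initial segment, varied little. Scn2a averaged between 313.5 CPM in inhibitory and 395.4 CPM in dentate granule nuclei, and Scn8a between 309.2 CPM in inhibitory and 431.5 CPM in CA1 nuclei. Both passed in 1 class alone, being lower in inhibitory nuclei (Scn2a -0.25, SE 0.09; Scn8a -0.50, SE 0.10). The call of Scn2a was lost under 7 alternatives (adjusted p between 0.0699 and 0.230), among them without Trained 2, Untrained 1 or Untrained 2.

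Among the β subunits, which adjust gating and adhesion of sodium channels, Scn3b varied most. CA1 nuclei held 103.8 and 160.0 CPM in trained and 129.9 and 206.0 CPM in untrained libraries. Thalamic nuclei held 37.1 and 43.2 CPM in trained and 47.5 and 38.4 CPM in untrained libraries, with no overlap with CA1. Scn3b was higher in CA1 (1.32, SE 0.12, adjusted p = 8.69e-21) and dentate granule nuclei (0.59, SE 0.14), and lower in inhibitory (-0.65, SE 0.15) and thalamic nuclei (-1.03, SE 0.16). Scn2b averaged 43.0 to 67.3 CPM over the 5 neuronal classes, and its largest difference from the others was -0.21 (SE 0.18), in dentate granule nuclei.

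The L-type gene Cacna1c separated the excitatory classes from each other. Thalamic nuclei had 2088.9 and 1817.6 CPM in trained and 2017.2 and 2409.6 CPM in untrained libraries. CA3 nuclei followed at 1261.5 and 1358.8 CPM in trained and 1321.1 and 1338.4 CPM in untrained libraries, and CA1 nuclei were lowest at 415.2 and 323.0 CPM in trained and 321.0 and 350.6 CPM in untrained libraries. These 3 classes did not overlap in any library, and the CA3 value of Trained 1 rests on 33 UMIs in 30 nuclei. The log2 difference was 1.60 in thalamic (SE 0.09, adjusted p = 2.96e-40), 0.82 in CA3 (SE 0.10), -0.99 in inhibitory (SE 0.10) and -1.66 in CA1 nuclei (SE 0.11, adjusted p = 6.43e-30). Cacna1d, the other L-type gene of neurons, ran in a narrower band. It averaged 535.6 CPM in dentate granule nuclei, where it was higher (0.28, SE 0.10), and 335.5 CPM in thalamic nuclei, where it was lower (-0.40, SE 0.10). The dentate granule call of Cacna1d was lost without Trained 2 (adjusted p = 0.205), without the library block (0.113) and with no count filter (0.0690).

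**Figure D2:**
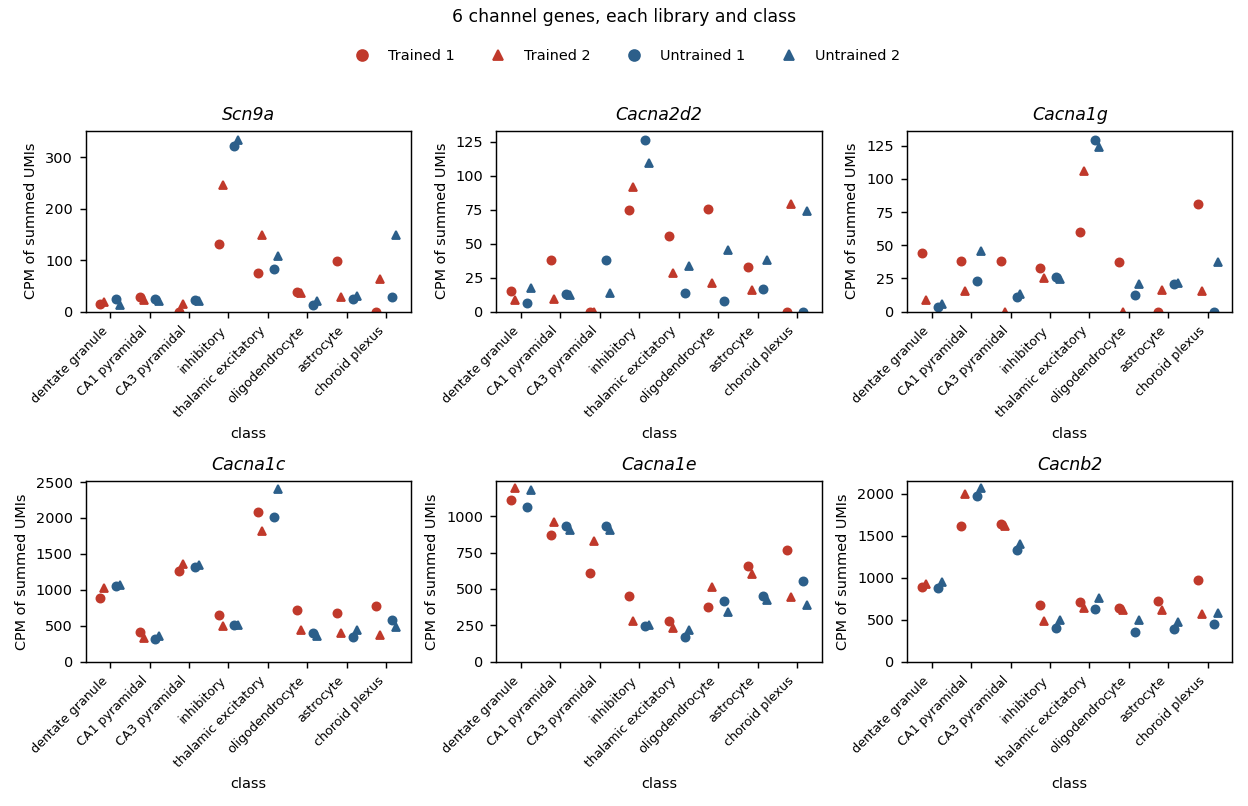
CPM of summed UMIs (vertical axes, from 0) of 6 channel genes in the 8 classes (horizontal axes), one point per library, Trained left of Untrained. Scn9a and Cacna2d2 peak in the inhibitory class, Cacna1g and Cacna1c in the thalamic class, and Cacna1e and Cacnb2 in hippocampal excitatory classes.

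Cacna1e, the R-type channel of dendrites and spines, was high in the hippocampal excitatory classes and low in thalamic nuclei. Dentate granule nuclei had 1108.0 and 1190.3 CPM in trained and 1060.4 and 1180.2 CPM in untrained libraries, and thalamic nuclei had 278.5 and 230.9 CPM in trained and 168.8 and 219.1 CPM in untrained libraries. The gene was higher in all 3 hippocampal excitatory classes, by 1.21 in dentate granule (SE 0.09, adjusted p = 4.06e-25), 0.92 in CA1 (SE 0.09) and 0.86 in CA3 nuclei (SE 0.11). It was lower in inhibitory (-1.30, SE 0.11) and thalamic nuclei (-1.69, SE 0.12, adjusted p = 5.29e-30). Its thalamic mean of 224.3 CPM lay below that of oligodendrocytes (412.1 CPM), astrocytes (532.3 CPM) and choroid plexus cells (539.5 CPM).

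Cacna1a, the P/Q-type channel of fast transmitter release, was highest in CA3 nuclei. CA3 nuclei had 1146.8 and 1079.8 CPM in trained and 870.0 and 1254.9 CPM in untrained libraries, and each lay above the same library's other neuronal classes. The value of Trained 1 rests on 30 UMIs in 30 nuclei. The difference was 0.95 in CA3 (SE 0.10, adjusted p = 3.08e-15) and 0.22 in thalamic nuclei (SE 0.09, adjusted p = 0.0419), with lower levels in CA1 (-0.33, SE 0.09) and dentate granule nuclei (-0.74, SE 0.10). The thalamic call of Cacna1a was lost under 7 alternatives, with adjusted p between 0.0523 with DESeq2 size factors and 0.351 without Untrained 1, and also without Trained 2 (0.0655) or Untrained 2 (0.135). Its CA1 call was lost under 4, without Untrained 2 among them (adjusted p = 0.0799), with the highest adjusted p at 0.100 for thinned nuclei. Cacna1b, the N-type channel of presynaptic terminals, was higher in thalamic (0.48, SE 0.10) and lower in dentate granule nuclei (-0.80, SE 0.12). Its class means ran from 143.9 CPM in dentate granule to 257.6 CPM in thalamic nuclei.

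The 3 T-type genes each peaked in a different class. Cacna1g, the T-type channel of thalamic relay neurons, lay at 60.3 and 106.3 CPM in trained and 129.8 and 124.3 CPM in untrained libraries in thalamic nuclei, and averaged 15.4 CPM in dentate granule nuclei. It was higher in thalamic (2.96, SE 0.18, adjusted p = 1.87e-34) and lower in dentate granule (-2.16, SE 0.40, adjusted p = 2.88e-06) and CA3 nuclei (-1.43, SE 0.52, adjusted p = 0.0424). The CA3 call of Cacna1g rests on few UMIs and was lost when nuclei were thinned (adjusted p = 0.754), without the library block (0.101), and without Trained 2 (0.249) or Untrained 2 (0.150). Cacna1h peaked in dentate granule nuclei at 94.8 CPM in Trained 2 and 94.0 and 99.6 CPM in the untrained libraries, but stood at 14.8 CPM in Trained 1, which is 1 UMI in 79 nuclei. It was higher in dentate granule (1.71, SE 0.18, adjusted p = 2.49e-16) and lower in inhibitory (-0.59, SE 0.21) and thalamic nuclei (-1.65, SE 0.25). The inhibitory call of Cacna1h was lost without Trained 2 (adjusted p = 0.196), Untrained 1 (0.0888) or Untrained 2 (0.294) and without the library block (0.108). Cacna1i was higher in CA1 (1.14, SE 0.20, adjusted p = 1.25e-06), with 56.6 and 34.2 CPM in trained and 49.9 and 45.8 CPM in untrained libraries, and lower in thalamic nuclei (-0.82, SE 0.27), a call lost without Untrained 1 (adjusted p = 0.112) or Untrained 2 (0.171).

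Of the α2δ subunits, Cacna2d2 was highest in the inhibitory class, as Scn9a was. Inhibitory nuclei had 75.1 and 91.9 CPM in trained and 126.6 and 109.2 CPM in untrained libraries, and the 4 other neuronal classes averaged 11.8 to 32.7 CPM. Cacna2d2 was higher in inhibitory (2.68, SE 0.18, adjusted p = 3.45e-30) and lower in dentate granule (-1.34, SE 0.35) and CA1 nuclei (-1.01, SE 0.31). The dentate granule call was lost without Untrained 1 (adjusted p = 0.153), and the CA1 call without Untrained 1 (adjusted p = 0.100) or Untrained 2 (0.154). Cacna2d3 was higher in CA3 (0.92, SE 0.11, adjusted p = 3e-13) and CA1 nuclei (0.58, SE 0.09), and lower in dentate granule (-0.85, SE 0.11) and thalamic nuclei (-0.41, SE 0.10). Its CA3 levels were 879.2 and 868.0 CPM in trained and 1025.8 and 1201.5 CPM in untrained libraries. Cacna2d1, the main target of gabapentin, was higher in thalamic (0.42, SE 0.09) and dentate granule nuclei (0.33, SE 0.10) and lower in inhibitory nuclei (-0.63, SE 0.10); without Trained 2 the dentate granule call was lost (adjusted p = 0.101).

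Cacnb2, a β subunit of L-type channels in heart and brain, was high in pyramidal classes. It reached 1613.5 and 1997.1 CPM in trained and 1973.3 and 2064.9 CPM in untrained libraries in CA1 nuclei, against 675.8 and 487.8 CPM in trained and 402.3 and 491.2 CPM in untrained libraries in inhibitory nuclei. Its difference was 1.27 in CA1 (SE 0.09, adjusted p = 1.07e-28), 0.78 in CA3 (SE 0.10), -0.60 in thalamic (SE 0.10) and -1.29 in inhibitory nuclei (SE 0.11). Cacnb4, which accompanies P/Q-type channels, was higher in thalamic (1.07, SE 0.09, adjusted p = 6.1e-23) and inhibitory nuclei (0.39, SE 0.09) and lower in the 3 hippocampal excitatory classes (-0.42 to -0.54). Of these, the CA3 call was lost without Trained 2 (adjusted p = 0.0625) and the dentate granule call without Untrained 2 (0.101). Cacnb1 was higher in CA1 nuclei (0.64, SE 0.21) and Cacnb3 lower in thalamic nuclei (-0.55, SE 0.23, adjusted p = 0.0447), both at class means under 50 CPM. The Cacnb1 call was lost without Untrained 1 (adjusted p = 0.0817) or Untrained 2 (0.0748), and the Cacnb3 call without each of the 4 libraries in turn (0.0813 to 0.156), without the library block (0.126) and with no count filter (0.113). Nalcn, the channel of the resting sodium leak, was nearly level: its class means lay between 189.1 and 249.3 CPM, and it passed in CA1 nuclei alone, where it was lower (-0.32, SE 0.10). That call of Nalcn was lost without Trained 2 (adjusted p = 0.173) or Untrained 2 (0.0606), without the library block (0.0715) and with no count filter (0.157).

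Within the inhibitory class, nuclei were parted by their UMIs of 2 marker lists. One holds Sox6, Lhx6, Sst, Pvalb and other genes of interneurons from the medial ganglionic eminence (the Sox6 group), and the other Adarb2, Vip, Htr3a and other genes of interneurons from the caudal eminence (the Adarb2 group). The Sox6 group held 92 and 327 nuclei in trained and 490 and 292 in untrained libraries, and the Adarb2 group 82 and 227 in trained and 254 and 163 in untrained libraries. No test was made between these groups. Cacna1a was higher in the Sox6 group in all 4 libraries, at 585 and 850 CPM in trained and 698 and 878 CPM in untrained libraries, against 428 and 425 CPM in trained and 354 and 370 CPM in untrained libraries in the Adarb2 group. Cacna2d2 had the same order in all 4 libraries, with 128 CPM in the Sox6 group and 35.2 CPM in the Adarb2 group of Trained 2. Scn9a had that order in 3 libraries, and in Trained 1 it lay at 99.6 CPM in the Sox6 group and 192 CPM in the Adarb2 group. Scn8a was also higher in the Sox6 group in all 4 libraries, as was Cacna2d4, at 9 UMIs in both groups and all libraries together. Cacnb2, Cacna2d3, Cacna1b, Nalcn, Cacnb4 and Scn3a were higher in the Adarb2 group in all 4 libraries. How many of all genes keep 1 order in all 4 libraries was not computed, so these lists are a description alone.

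**Figure D3:**
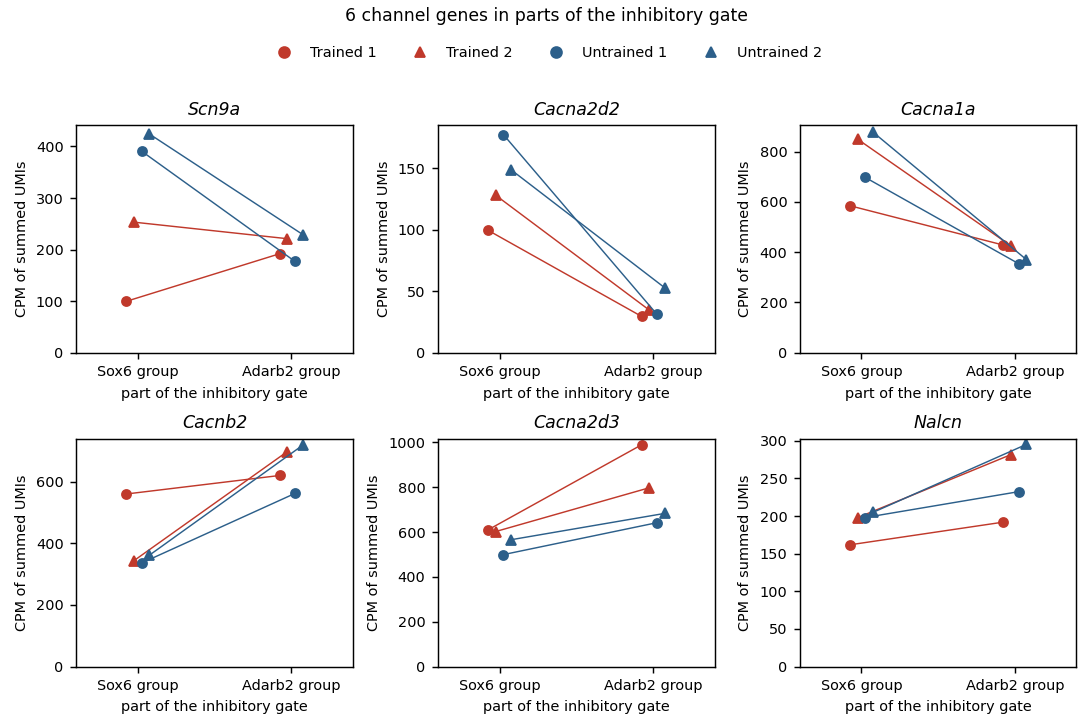
CPM of summed UMIs (vertical axes, from 0) of 6 channel genes in the Sox6 and Adarb2 groups of inhibitory nuclei; lines join the 2 groups of 1 library, red for Trained and blue for Untrained. Cacna2d2 and Cacna1a fall towards the Adarb2 group in all 4 libraries, and Cacnb2, Cacna2d3 and Nalcn climb.

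Scn9a and Cacna2d2 shared the inhibitory class as their highest neuronal class, so their promoters are shown side by side. RefSeq promoter windows (GRCm38.p6, 250 bases before to 50 after the gene start) were at hand for 24 of the 30 genes. The Scn9a window is chr2:66634913-66635212 on the minus strand, and the Cacna2d2 window is chr9:107399630-107399929 on the plus strand; capitals mark each CG dinucleotide, read 5′ to 3′.
Scn9a: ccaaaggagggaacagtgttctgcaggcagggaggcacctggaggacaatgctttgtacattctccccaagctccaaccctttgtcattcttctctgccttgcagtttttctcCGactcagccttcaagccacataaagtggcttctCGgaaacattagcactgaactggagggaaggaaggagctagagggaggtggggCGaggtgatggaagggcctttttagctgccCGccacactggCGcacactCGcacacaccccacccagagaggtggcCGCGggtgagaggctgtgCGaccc
Cacna2d2: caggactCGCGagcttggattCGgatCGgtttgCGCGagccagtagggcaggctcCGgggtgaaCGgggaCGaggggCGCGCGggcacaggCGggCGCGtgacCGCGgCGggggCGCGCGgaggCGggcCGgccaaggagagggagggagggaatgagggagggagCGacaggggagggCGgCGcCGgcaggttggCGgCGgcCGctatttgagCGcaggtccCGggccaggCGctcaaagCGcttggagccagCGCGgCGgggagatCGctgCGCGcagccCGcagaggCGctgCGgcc
The Scn9a window holds 9 CG dinucleotides and the Cacna2d2 window 43, where the median of all 32851 windows is 7. Of those windows, 54.2% hold fewer than the Scn9a window and 97.4% fewer than the Cacna2d2 window. TATAAA, searched on both strands, is in neither window and in 13.6% of all windows.

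Barcodes under 400 UMIs, which hold free RNA and may hold damaged nuclei, carried another mix of channel transcripts. Of the 26 genes with at least 100 UMIs, 16 had a higher level in barcodes of at least 600 UMIs than in low-UMI barcodes in all 4 libraries, 7 had a lower level in all 4, and 3 were mixed. The shares of all genes on each side were not computed, so these counts are not read as particular to channel genes. Cacnb2 stood 2.47 and 5.22 times higher in trained and 5.47 and 5.16 times higher in untrained libraries. Scn2b stood on the other side, with ratios of 0.414 and 0.340 in trained and 0.409 and 0.351 in untrained libraries. Scn4b, Cacnb3, Cacnb1, Scn3b, Scn2a and Cacna2d2 were also below 1 in all 4. For 15 of those 16 genes the ratio was lowest in Trained 1, the shallowest library, and the part of free RNA in class levels was not tested.

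**Figure D4:**
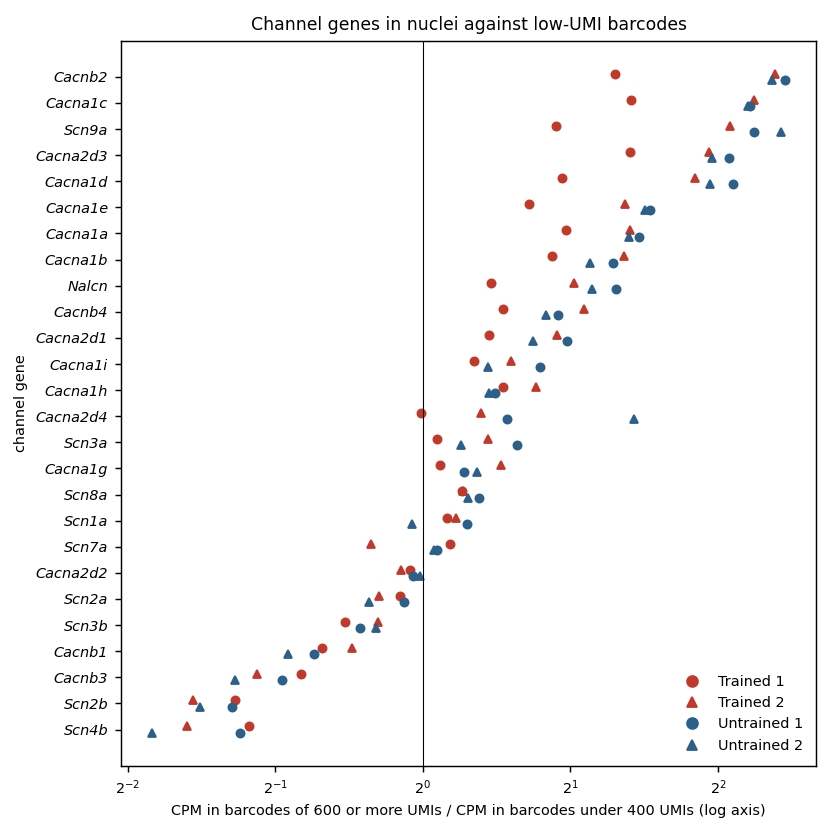
Ratio of CPM in barcodes of at least 600 UMIs to CPM in barcodes under 400 UMIs (horizontal log axis) for 26 channel genes (rows), one point per library. Cacnb2, Cacna1c and Scn9a lie far right of 1, Scn2b and Scn4b left of it, and Trained 1 lies nearest to 1 for Cacnb2, Cacna1c and Scn9a.

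No channel gene passed the test of training. In each of the 8 classes and in all nuclei together, 0 channel genes were called by edgeR's quasi-likelihood test or by DESeq2's Wald test, where edgeR called at most 0.118% of all genes. That share was largest, at 0.118%, in choroid plexus cells and was 0.0513% among inhibitory, 0.026% among CA3, 0.0125% among granule, 0.0116% among thalamic and 0.0108% among CA1 nuclei. It was 0% for oligodendrocytes, astrocytes and all nuclei. At an unadjusted p under 0.05 there was 1 of 26 in all nuclei (6.27% of all genes), 0 of 21 in dentate granule (5.53%), 1 of 23 in CA1 (4.14%) and 0 of 16 in CA3 nuclei (3.64%). The count was 4 of 23 in inhibitory (5.02%), 0 of 22 in thalamic (3.93%), 1 of 16 in oligodendrocyte (8.18%), 7 of 21 in astrocyte (11.7%) and 2 of 11 in choroid plexus nuclei (7.79%). Without Trained 1 the count was 0 of 23 in inhibitory (3.97% of all genes) and 1 of 22 in astrocyte nuclei (8.53%). Without Untrained 1 or Untrained 2 it was also lower in inhibitory and astrocyte nuclei. With 1 library left out in turn, the counts of all nuclei and of the other classes shifted as well. These fits leave 1 library in a group, so their counts are not read as results about channel genes. Intervals were wide: in inhibitory nuclei the 95% interval lay within 1 log2 unit of 0 for 18 of 23 genes, and in CA3 nuclei for 12 of 16. The count was 18 of 23 in CA1, 16 of 21 in dentate granule and 16 of 22 in thalamic nuclei. It was lower in non-neuronal classes, at 7 of 21 in astrocytes, 6 of 16 in oligodendrocytes and 1 of 11 in choroid plexus cells. In all nuclei the interval lay within that range for 26 of 26. In the test of whether the training effect differed between classes, 0 of 23 genes passed by edgeR and 7 had an unadjusted p under 0.05 (Cacna2d3 lowest, adjusted p = 0.215), where 0.245% of all genes passed and 6.7% had an unadjusted p under 0.05. In low-UMI barcodes edgeR called 0 of 26 channel genes after training, and 3 had an unadjusted p under 0.05, where 0% of all genes were called and 19% had an unadjusted p under 0.05. These 3 were Scn4b at -0.57 (SE 0.19, adjusted p = 0.216), Cacna1d at 0.75 (SE 0.27, adjusted p = 0.227) and Cacnb2 at 0.78 (SE 0.30, adjusted p = 0.236) on the log2 scale.

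**Figure D5:**
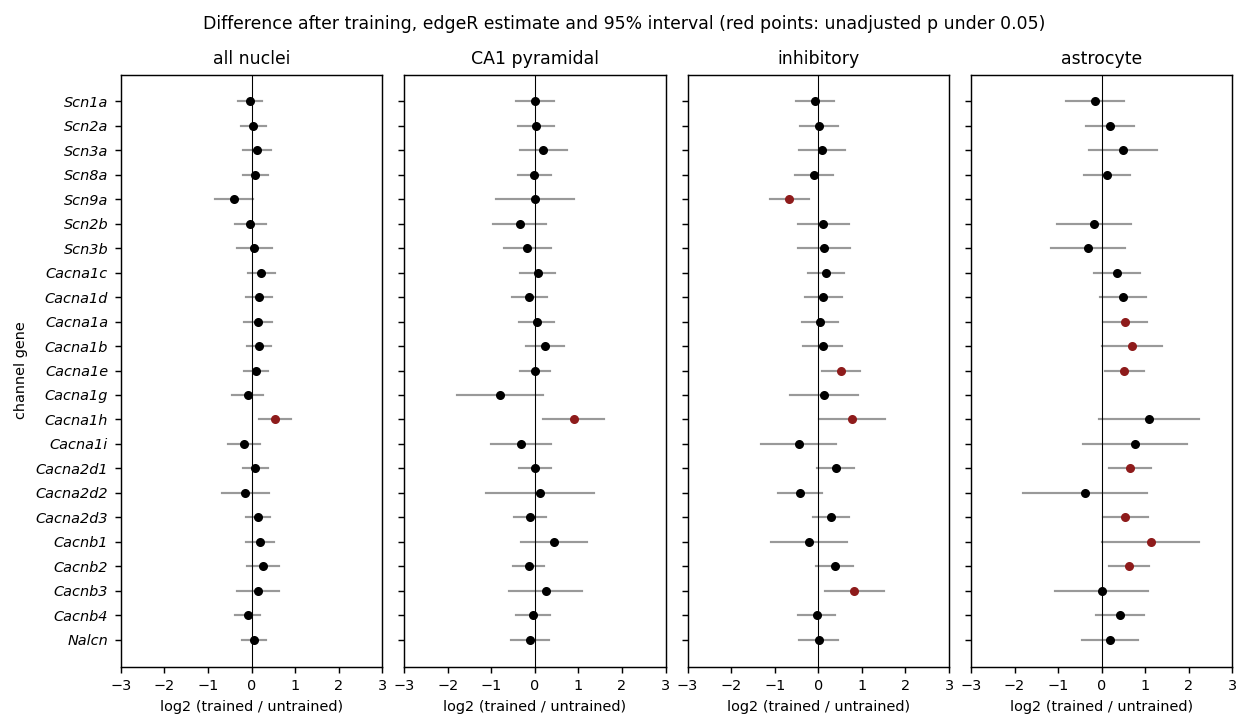
Log2 difference of trained over untrained (horizontal axes) with its 95% interval (grey lines) for 23 channel genes (rows) in all nuclei and 3 classes. Red points have an unadjusted p under 0.05; none passed after adjustment.

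By edgeR, Scn9a in inhibitory nuclei had the smallest p of the neuronal classes. Both trained libraries, at 131 and 246 CPM, lay below both untrained libraries, at 322.6 and 334.9 CPM. Its log2 difference was -0.67 (SE 0.23, 95% interval -1.12 to -0.22, adjusted p = 0.636), and it was -0.38 without Trained 1 and -1.31 without Trained 2. In the Sox6 group Scn9a lay at 99.6 and 253 CPM in trained and 391 and 424 CPM in untrained libraries, and in the Adarb2 group at 192 and 221 CPM in trained and 177 and 229 CPM in untrained libraries. Trained and untrained libraries thus overlapped in the Adarb2 group and not in the Sox6 group. The Trained 1 values rest on 8 UMIs in 92 nuclei of the Sox6 group and 13 UMIs in 82 nuclei of the Adarb2 group. Nuclei of the Sox6 group numbered 1.12 and 1.44 times those of the Adarb2 group in trained and 1.93 and 1.79 times in untrained libraries. Dentate granule markers in the inhibitory gate summed to 1511 and 1116 CPM in trained and 939.5 and 949.0 CPM in untrained libraries; of 13 listed genes, all detected, 6 had both trained libraries above both untrained ones and 2 had both below. CA3 markers summed to 915 and 819 CPM in trained and 645 and 758 CPM in untrained libraries, with 3 of 9 above, 1 below and Csf2rb2 at 0. CA1 and thalamic markers overlapped between the groups, at 3501 and 4277 CPM in trained and 3693 and 3794 CPM in untrained libraries for CA1 and at 1844 and 1397 CPM in trained and 1621 and 1743 CPM in untrained libraries for thalamic ones. In this gate, and within its Sox6 and Adarb2 groups, the share of all genes with both trained libraries on one side of both untrained ones was not computed. The part of group sizes and of these markers in the Scn9a difference was not tested. In the same class Cacnb3 differed by 0.83 (SE 0.35, adjusted p = 0.862), Cacna1h by 0.78 (SE 0.39, adjusted p = 0.972) and Cacna1e by 0.52 (SE 0.23, adjusted p = 0.923), and Cacna1e by 0.21 without Trained 1.

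Cacna1h was the lone gene under an unadjusted p of 0.05 in all nuclei and in CA1 nuclei. All nuclei had 47.9 and 48.5 CPM in trained and 29.7 and 38.6 CPM in untrained libraries, a log2 difference of 0.53 (SE 0.16, adjusted p = 0.792). In CA1 nuclei it lay at 28.3 and 59.0 CPM in trained and 25.8 and 33.3 CPM in untrained libraries, so the groups overlapped. That difference was 0.89 (SE 0.34, adjusted p = 0.999), and -0.14 without Trained 2.

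The other classes gave these smallest p-values. Dentate granule nuclei had Cacna1i at -1.11 (SE 0.71), Cacna1d at 0.28 (SE 0.18) and Scn2b at -0.56 (SE 0.37), each with an adjusted p of 0.967. CA1 nuclei had Cacna1g at -0.81 (SE 0.48) and Cacnb1 at 0.44 (SE 0.37), CA3 nuclei had Cacna2d3 at -0.38 (SE 0.24), Cacnb4 at -0.38 (SE 0.32) and Cacna1e at -0.27 (SE 0.25). Thalamic nuclei had Cacna1g at -0.49 (SE 0.26), Cacna1i at 0.93 (SE 0.51) and Cacna1e at 0.36 (SE 0.22). In all nuclei Scn9a stood at -0.39 (SE 0.19) and Cacna1c at 0.22 (SE 0.14). Oligodendrocytes had Cacna1d at 0.87 (SE 0.32, adjusted p = 0.463), Cacnb2 at 0.55 (SE 0.28) and Cacna1c at 0.53 (SE 0.29). Choroid plexus cells had Cacna2d3 at 1.15 (SE 0.43, adjusted p = 0.369), Scn2a at -1.32 (SE 0.52) and Cacnb4 at 0.63 (SE 0.39).

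In astrocytes 14 of 21 channel genes had both trained libraries above both untrained libraries, as had 20.6% of all genes tested, and the median log2 difference of the 21 was 0.50, beside a median near 0 (-0.005) over all genes. Without Trained 1 the median was 0.29 over 22 channel genes, beside -0.01 over all genes. Cacna2d1 had 654.0 and 477.7 CPM in trained and 349.9 and 339.7 CPM in untrained libraries (0.66, SE 0.23, adjusted p = 0.311). Cacnb2 (0.62, SE 0.22, adjusted p = 0.319) and Cacna1e (0.52, SE 0.22, adjusted p = 0.377) came next. In this gate the summed level of CA1 markers was 2371 and 1947 CPM in trained and 1327 and 1383 CPM in untrained libraries; all 10 were detected, 6 had both trained libraries above both untrained ones and 1 had both below. CA3 markers (703 and 615 CPM in trained, 557 and 526 CPM in untrained libraries; 3 of 9 above, 1 below) and deep-layer cortical markers (867 and 830 CPM in trained, 667 and 725 CPM in untrained libraries; 2 of 6 above, 0 below) also summed higher in both trained libraries. Upper-layer cortical markers summed lower in both, at 425 and 595 CPM in trained and 816 and 685 CPM in untrained libraries, with 0 of 6 above and 2 below. Dentate granule markers (4 of 13 above, 0 below) and inhibitory markers (1 of 10 above, 1 below) overlapped between the groups. The summed level of thalamic markers was 2747 and 2765 CPM in trained and 2559 and 3211 CPM in untrained libraries, with 1 of 9 above and 1 below. The part of neuronal RNA in these differences was not tested.

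Proteins that anchor, traffic or modulate the channels were read from 3 further lists of 33 genes, of which 32 are among the features. Unlike those of channel genes, the calls of partner genes were not checked under the alternatives. Of 10 tested sodium channel partners, 7 were higher and 1 lower in neuronal than in non-neuronal classes, where 14.8% of all genes were higher and 12.7% lower; Fgf13 (0.94, SE 0.13), Fgf12 (0.91, SE 0.08), Fgf14 (0.76, SE 0.08), Sptbn4 (0.70, SE 0.12), Ank3 (0.63, SE 0.08), Nedd4l (0.60, SE 0.10) and Ank2 (0.19, SE 0.08) were higher and Camk2d lower (-0.51, SE 0.13). Fgf13, a fibroblast growth factor homologue that binds sodium channel tails, had the same direction as Scn9a in all 5 neuronal classes: it was higher in inhibitory (2.22, SE 0.09) and thalamic nuclei (1.43, SE 0.10) and lower in CA1 (-1.55, SE 0.13), CA3 (-1.13, SE 0.18) and dentate granule nuclei (-0.97, SE 0.13). Fgf12, of the same family, was higher in inhibitory (0.83) and thalamic nuclei (1.28) and lower in CA1 (-0.54), CA3 (-0.56) and dentate granule nuclei (-1.01). Camk2d, a kinase that modifies sodium channels in heart, was higher in thalamic (2.68, SE 0.11) and inhibitory nuclei (0.78, SE 0.13) and lower in the 3 hippocampal excitatory classes (-0.68 to -1.42). Fgf12 and Camk2d thus had the same directions as Fgf13, and how many of all genes have them was not computed. Nfasc, which organizes the axon initial segment and the node, was higher in oligodendrocytes than in other non-neuronal classes (1.62, SE 0.17) and in thalamic nuclei (0.72, SE 0.10).

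Of the remaining sodium channel partners, Fgf14 was lower in CA1 (-0.62) and higher in thalamic nuclei (0.47), Ank2 lower in CA1 (-0.26), and Ank3, the ankyrin of the initial segment, higher in CA3 (0.29) and lower in inhibitory nuclei (-0.53). Nedd4l, a ubiquitin ligase of sodium channels, was higher in dentate granule (0.60) and lower in inhibitory nuclei (-0.75), and Nfasc was lower in both (-0.35 and -0.43). Among non-neuronal classes, Ank3 was higher (0.70) and Camk2d lower (-0.95) in oligodendrocytes, Fgf13 was higher (0.76) and Nfasc lower (-0.60) in astrocytes, and Camk2d was higher (1.16) and Nfasc (-1.02) and Ank2 (-0.61) lower in choroid plexus cells.

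Calcium channel partners, 11 of 18 tested, had 6 higher and 1 lower in neuronal classes, again beside 14.8% of all genes higher and 12.7% lower. The 6 higher were the release-site proteins Rims1 (1.12, SE 0.08), Rims2 (0.81, SE 0.09), Rimbp2 (0.85, SE 0.11), Erc1 (0.65, SE 0.12) and Erc2 (1.04, SE 0.08) and the anchoring protein Akap6 (0.65, SE 0.09). Stac, an adaptor of L-type channels, was higher in CA1 nuclei (4.18, SE 0.18), the class with the lowest Cacna1c, and lower in dentate granule nuclei (-1.53, SE 0.46). CA1 nuclei were also higher in Calm2 (0.25) and lower in Rims1 (-1.05), Erc1 (-0.64), Rims2 (-0.55) and Erc2 (-0.52). CA3 nuclei, the class with the highest Cacna1a, were higher in Cabp1 (1.30, SE 0.21), a calcium-binding regulator, Erc2 (0.74), Rims1 (0.52) and Rimbp2 (0.41), and lower in 1 partner of the list. Thalamic nuclei were higher in Rims2 (1.504, SE 0.08), Erc1 (0.88), Rims1 (0.56) and Akap6 (0.49) and lower in Cabp1 (-1.18), Rimbp2 (-0.36) and Calm2 (-0.26). Dentate granule nuclei were higher in Erc2 (0.69) and lower in Rims2 (-1.14), Akap6 (-0.49) and Erc1 (-0.46), inhibitory nuclei were higher in Rims2 (0.39) and lower in Erc2 (-0.81), and oligodendrocytes were lower in Erc1 (-0.96).

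The NALCN complex list had 3 tested genes, Unc79, Unc80 and Fam155a, partners that Nalcn needs to conduct. They were 3 of 3 higher in neuronal classes (0.87 to 1.10; 14.8% of all genes) and 3 of 3 lower in inhibitory nuclei (12.6% of all genes): Fam155a by -0.75 (SE 0.11), Unc80 by -0.62 (SE 0.10) and Unc79 by -0.62 (SE 0.10). Nalcn itself differed by -0.04 (SE 0.09) in inhibitory nuclei. Unc80 (0.93, SE 0.09) and Fam155a (0.52, SE 0.10) were higher in thalamic nuclei, and Unc79 in CA1 nuclei (0.25, SE 0.09). After training, 0 partner genes of the 3 lists were called in any class or in all nuclei by edgeR. At an unadjusted p under 0.05 there were 4 of 89 tests of sodium channel partners, 14 of 100 of calcium channel partners and 4 of 26 of the NALCN complex, over 8 classes and all nuclei, where 3.64% to 11.7% of all genes had such a p. Astrocytes, at the 11.7% end, gave 3, 6 and 2 of these. Among the calcium channel partners in all nuclei, Akap5 stood at -0.59 (SE 0.17, adjusted p = 0.792). Fgf13 (0.21, SE 0.13) and Nfasc (0.19, SE 0.14) led the sodium channel partners there, and Fam155a (0.18, SE 0.13) and Unc79 (0.17, SE 0.13) the NALCN complex.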

How the data were processed

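The authors deposited UMI counts for each gene in each barcode. Per the file headers the tool was Cell Ranger 7.0.0, while the submitters' processing notes name Cell Ranger 8, STAR and the GRCm39 build. Per the labels' protocols the kit was 10x Genomics 3′ v3.1. Reads from antisense or overlapping genes were not separated here, and gene lengths were not used, so levels are not compared between genes. Channel genes, partner lists and markers were chosen with earlier results of these data known.

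Barcodes with at least 600 UMIs entered a class when at least 3 UMIs of at least 2 of its markers were present and the Poisson tail, given depth and the library's mean share, was under 0.001. In the 8 classes, 3981 nuclei lay just inside this limit (tail above 0.0001) and barcodes lay just outside it (tail under 0.01) 7183 times, counted per class. Barcodes passing several gates (990) were dropped as possible doublets, and no doublet caller was run. Low-UMI barcodes had under 400 UMIs. CPM are a gene's UMIs per 1000000 UMIs summed over a class and library. Floors take 3 counts and cover counting error only. Inhibitory nuclei joined the Sox6 or Adarb2 group with at least 2 UMIs of one group's markers and at least 2 times those of the other.

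Counts were summed per class and library. edgeR 4.0.16 in R 4.3.3 (filterByExpr, TMM, quasi-likelihood F test) was used with Benjamini-Hochberg adjustment within each comparison at 0.05; SE is the absolute log2 difference divided by the square root of F, and intervals are at 95%. Training was tested per class and in all nuclei without a block, and classes and the interaction with the library as a block. A class contrast sets a class against the equal-weight mean of the log2 levels of the other neuronal or non-neuronal classes. The fits were tested on simulated data. Python 3.11.15 with numpy 2.4.6, scipy 1.17.1, pandas 2.3.3 and matplotlib 3.10.9 was used.

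For training the text names members past the threshold, filled up to 3 by the smallest unadjusted p, and for each class contrast at least the called members with the 3 largest positive and 3 largest negative differences. Of partner lists it names those past the threshold, otherwise the 2 with the smallest p in all nuclei. The values of 1 calcium channel partner are not reported here. Alternatives were DESeq2 1.42.0 (size factors in edgeR, and its Wald test for training), no count filter, a replicate block, each library left out, at least 1000 UMIs, thinning to 600 UMIs, at least 5 marker UMIs, barcodes of several gates kept, at most 5% mitochondrial UMIs, and no library block.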

Additional observations from a re-analysis of the deposited data

How the results depend on the processing

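Across alternatives, 0 channel genes were called after training in every one of the 108 recomputed counts, and 0 passed the interaction test without the library block (2 of 23 at an unadjusted p under 0.05). Of 190 recomputed counts of class differences, 176 stayed within 1.5 times. Thinned to 600 UMIs, 19 channel genes passed the count filter in place of 23, so counts of that setting cover fewer genes. With this thinning 2 genes were lower in CA3 nuclei, 5 in thalamic nuclei and 1 in oligodendrocytes, and 2 were higher in choroid plexus cells. Several-gate barcodes kept and DESeq2 size factors also gave 2 higher in choroid plexus cells, and no count filter gave 0 lower in astrocytes. With 1 library left out, lower genes ranged from 4 to 7 in CA1, from 1 to 5 in CA3, from 0 to 1 in oligodendrocytes, in astrocytes and in neuronal against non-neuronal classes, and higher ones from 1 to 2 in choroid plexus cells. Of 377 recomputed class differences of named genes, 13 missed the threshold and 0 changed sign. After training, 4 of 316 changed sign, none of them called, all in CA1 nuclei: with 1 library left out, Cacna1h ranged from -0.144 to 1.05, Cacna1g from -1.24 to 0.0666 and Cacnb1 from -1.84 to 0.673, with the change of sign without Trained 2, and thinned to 600 UMIs Cacnb1 gave -0.0780. The cause was not tested. In the count of all genes called after training, astrocytes had 0 and all nuclei 0, but 211 and 189 without Untrained 2.

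Replicate numbers were not taken to pair the libraries. Deviations of libraries with the same number correlated between -0.03 in all nuclei and 0.105 in CA3 nuclei. With 2 libraries per group this correlation cannot settle whether the libraries are paired. With a replicate block 0 channel genes were called, and all genes called were 0 to 6 per class.

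Not run: with at least 1000 UMIs, inhibitory and thalamic classes alone kept 30 nuclei in every library, so class contrasts gave no value; with at least 5 marker UMIs choroid plexus cells fell short, so non-neuronal contrasts gave none. Depth limits low genes, since 1 UMI was worth 14.8 CPM in dentate granule nuclei and 38.2 CPM in CA3 nuclei of Trained 1. Choroid plexus cells numbered 31 nuclei in Trained 1 and 33 in Untrained 1.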

Other observations

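Channel transcripts took 0.731% and 0.720% of the UMIs in trained libraries and 0.659% and 0.705% in untrained libraries, over barcodes of at least 600 UMIs.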
